A study of Mus musculus with 248 samples.

Results

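Trim28 and the mouse genes named Zfp with a number were followed in single hematopoietic stem cells (HSCs) sorted by low or high mitochondrial membrane potential (MMP). A gene belonged to the group if it was Trim28, or if its symbol began with Zfp and a digit, in any of 3 of the authors' deposited tables. Zfp36, Zfp36l1 and Zfp36l2 were left out, since they encode RNA-binding proteins of another kind. This gave 215 genes of 7272 symbols in all. The list of highly variable genes held 195 of them, by symbol only, the table of MMP-low against MMP-high cells held 33, and the table of cell clusters A to E held 64.

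MMP-low HSCs were compared with MMP-high HSCs, both from C57Bl6 mice and both sorted as Lin- Sca1+ cKit+ CD150+ CD48-, with no transgene or treatment in the labels. Each library held the RNA of 1 cell caught on a Fluidigm C1 chip, and they came from 122 MMP-low cells and 126 MMP-high cells. No animal or sort is named, so each group counted as 1 sample, the differences have no replicate check, and no test was made here. Every fold change, share of cells and adjusted p below is a value of the authors' deposited table, and none measures a spread between animals.

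TRIM28, also called KAP1, is a corepressor that does not read DNA by itself. It is brought to DNA by zinc finger proteins that carry a KRAB box, and it recruits the histone H3 lysine 9 methyltransferase SETDB1 and the HP1 proteins. The C2H2 zinc finger proteins are among the largest families of DNA-binding proteins in mice, many of their genes lie in clusters of close relatives, and many KRAB members bind transposable elements. In mouse HSCs, TRIM28 is known to be needed for the cells to be maintained.

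Promoters of 4 genes are shown, because these genes carry the main contrasts below. Trim28 and Zfp324 lie close together on chromosome 7 and were both higher in MMP-high cells, while Zfp760 and Zfp54 lie on chromosome 17 and were on opposite sides. Sequences are from RefSeq, build GRCm38.p6, all on the plus strand, at chr7:13023902-13024201 for Trim28, chr7:12965588-12965887 for Zfp324, chr17:21707491-21707790 for Zfp760 and chr17:21422977-21423276 for Zfp54. Each is 300 bases long, and capitals mark letters of a motif searched on both strands: the GC box GGGCGG, the CCAAT box CCAAT, the ETS motif CCGGAAG, the E-box CACGTG and the TATA box TATAAA.
Trim28: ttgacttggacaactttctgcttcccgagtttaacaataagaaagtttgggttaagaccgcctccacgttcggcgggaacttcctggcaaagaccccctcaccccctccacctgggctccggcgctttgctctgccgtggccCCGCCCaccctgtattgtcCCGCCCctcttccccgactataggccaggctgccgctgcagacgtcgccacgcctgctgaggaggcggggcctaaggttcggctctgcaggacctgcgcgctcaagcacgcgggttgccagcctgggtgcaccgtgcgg
Zfp324: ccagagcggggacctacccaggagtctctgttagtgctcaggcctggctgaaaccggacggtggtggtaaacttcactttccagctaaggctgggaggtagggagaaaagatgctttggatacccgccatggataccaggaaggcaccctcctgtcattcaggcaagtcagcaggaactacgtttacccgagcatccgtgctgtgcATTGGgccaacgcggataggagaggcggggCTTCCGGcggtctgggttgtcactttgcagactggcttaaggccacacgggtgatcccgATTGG
Zfp760: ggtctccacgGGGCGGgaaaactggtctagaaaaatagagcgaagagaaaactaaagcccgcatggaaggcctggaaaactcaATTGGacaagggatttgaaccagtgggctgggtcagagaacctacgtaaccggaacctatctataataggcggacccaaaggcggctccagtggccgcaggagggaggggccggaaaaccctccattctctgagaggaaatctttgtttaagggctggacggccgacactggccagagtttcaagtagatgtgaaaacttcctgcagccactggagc
Zfp54: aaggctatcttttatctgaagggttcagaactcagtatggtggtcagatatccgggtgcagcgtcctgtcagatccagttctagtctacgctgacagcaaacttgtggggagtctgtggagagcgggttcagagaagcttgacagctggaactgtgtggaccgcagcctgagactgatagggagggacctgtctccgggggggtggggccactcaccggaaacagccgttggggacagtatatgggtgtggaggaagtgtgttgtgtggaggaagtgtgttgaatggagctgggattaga
The Trim28 window held 2 GC boxes and the Zfp324 window held 1 ETS motif and 2 CCAAT boxes. The Zfp760 window held 1 GC box and 1 CCAAT box, and none of the motifs was in the Zfp54 window. A match is a run of letters and not a known binding site.

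The libraries differed in the number of genes detected. The median number of detected genes was 2317 in MMP-low and 3796 in MMP-high libraries, and total reads ranged over 678723 to 5074155 in MMP-low and 949570 to 4308287 in MMP-high libraries. Libraries numbered up to 85 in their titles had medians of 2500 genes in MMP-low and 4080 in MMP-high, and those numbered above 85 had 2083 in MMP-low and 1905 in MMP-high. Median total reads were 1620811 in MMP-low and 1816108 in MMP-high libraries. Among libraries numbered up to 85, median mapped reads were 472174 in MMP-low and 1035705 in MMP-high, and the median share of intronic reads was 37.5% in MMP-low and 21.1% in MMP-high. Above 85, mapped reads were 564476 in MMP-low and 454512 in MMP-high, and intronic reads 46.1% in MMP-low and 45.5% in MMP-high. The labels state that 224 cells with over 600000 reads and 5500 genes were kept, but no library in the quality values exceeded 5500 genes, so which libraries entered the authors' tables cannot be told. Of the HSC markers, Ly6a, which encodes Sca1, was detected in 100% of cells of both groups in the authors' deposited table, and Kit was not listed there. Granulocyte markers were also higher in MMP-low cells (9 of 13 markers called, none called in MMP-high), as were lymphoid markers (5 of 10), HSC markers (5 of 10) and erythroid markers (2 of 9). Of 16203 genes taken as tested, 3.33% were called for MMP-low. The granulocyte marker Prtn3 and the HSC marker Hlf were listed for MMP-high and not called. In the authors' deposited table Ltf was found in 100% of MMP-low cells and 30.3% of MMP-high cells and Ighm in 70.5% of MMP-low cells and 0% of MMP-high cells. Eif2s3y, a Y-linked gene, was detected in 89.5% of MMP-low cells and 12.6% of MMP-high cells by the authors' deposited table. Xist, expressed from the inactive X chromosome, was detected in 96.2% of MMP-low cells and 100% of MMP-high cells by the authors' deposited table and was not called (adjusted p = 0.108). Most MMP-low cells thus had both Eif2s3y and Xist detected. What this means for reading detection as transcript of a single cell was not tested. The part of depth, intronic reads, these markers and these genes in the results below was not tested.

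Trim28 was the leading gene of the MMP-high side. The authors' deposited table gave it a log fold change of 0.93 toward MMP-high (log base not stated, adjusted p = 1.01e-07), the largest of the 919 genes on that side. It was detected in 98.1% of MMP-low cells and 100% of MMP-high cells by the authors' deposited table. Nearly every cell of both groups thus had the transcript, and what differed was the average level. Among the clusters, the authors' deposited table lists Trim28 for cluster E alone, with a log fold of 0.52 over all other cells and an adjusted p of 0.0148. There too detection was high on both sides of the comparison, at 100% in cluster E and 99% in all other cells of the authors' deposited table.

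Zfp genes were found on both sides of the MMP comparison and many of them differed in how many cells had the transcript at all. A gene is called where the authors' deposited table gives it an adjusted p under 0.05. The number of genes tested is not stated and was taken as 16203, the ratio of the adjusted to the unadjusted p. All shares of genes tested rest on that number. In MMP-low cells 21 of the genes were listed as higher and 16 were called, where 5.86% of those 16203 genes were listed and 3.33% called. In MMP-high cells 12 were listed, Trim28 included, and 8 were called, where 5.67% of all genes tested were listed and 3.69% called. The 24 genes called on either side stand beside 7.02% of all genes tested. The 215 genes were taken partly from this same table, so the rule raises their share and it is not comparable with that value. They made up 2.97% of the genes called for MMP-low and 1.34% of those called for MMP-high. Genes of the rule are 1.79% of annotated protein-coding genes. How many of the 215 genes were among those tested is not given. The authors' deposited table holds only genes with a log fold of at least 0.25 and an unadjusted p (MAST) of at most 0.00999. Unlisted genes thus have no value here, and their fold need not be under 0.25. Reads from near-identical paralogs may be split or shared between genes, which makes single Zfp values uncertain.

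The genes with the sharpest difference in detection on the MMP-low side were Zfp7, Zfp781 and Zfp54. Zfp54 was detected in 63.8% of MMP-low cells and listed at 0% of MMP-high cells by the authors' deposited table, with a log fold of 0.35 (adjusted p = 4.38e-20). Zfp781 was detected in 67.6% of MMP-low cells and 1.7% of MMP-high cells by the authors' deposited table (log fold 0.44, adjusted p = 2.48e-20). For Zfp7, the authors' deposited table gave 71.4% of MMP-low cells and 5.0% of MMP-high cells (log fold 0.40, adjusted p = 6.69e-19). All 3 were thus found in most MMP-low cells and in few or no MMP-high cells. Genes at or under 5% in the other group made up 3 of the 21 Zfp genes listed for MMP-low, or 14.3%, beside 8.75% of all genes listed for MMP-low. Zfp7 lies at that limit, and strictly under 5% were 2 of the 21 genes, beside 74 of all 949 genes listed for MMP-low. Libraries numbered up to 85 were 69.7% of the MMP-low and 67.5% of the MMP-high libraries, and whether genes of either side were detected in these cells was not tested.

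**Figure D1:**
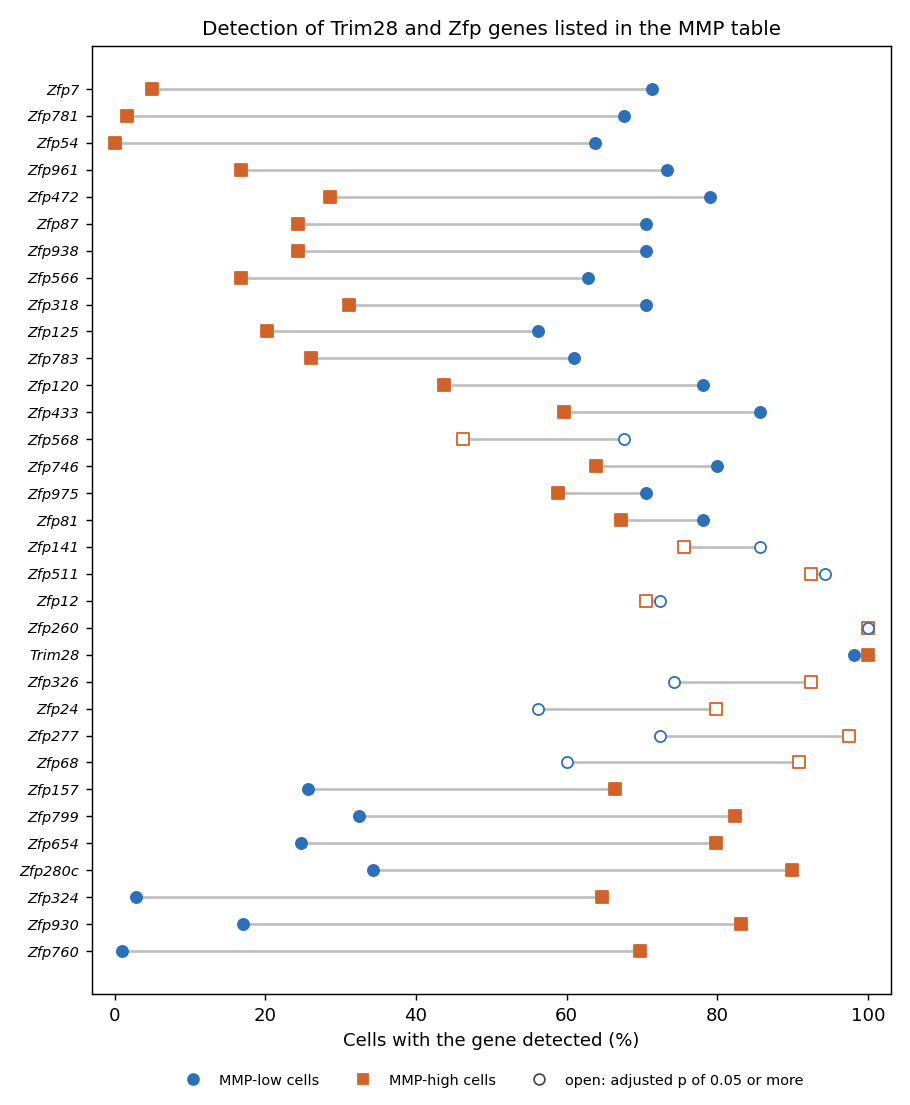
Percent of cells with each gene detected, per gene, for the 33 genes listed in the authors' deposited table, with MMP-low cells as circles and MMP-high cells as squares; open symbols mark an adjusted p of 0.05 or more. Zfp54, Zfp781 and Zfp7 lie at or under 5% in MMP-high cells, Zfp760 and Zfp324 under 5% in MMP-low cells, and Trim28 near 100% in both.

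Other Zfp genes of the MMP-low side were common in both groups and differed more in amount. Zfp81 had the largest fold of them in the authors' deposited table, 0.74, with detection in 78.1% of MMP-low cells and 67.2% of MMP-high cells (adjusted p = 2.06e-04). Zfp975 followed by the authors' deposited table, with a log fold of 0.61, and was found in 70.5% of MMP-low cells and 58.8% of MMP-high cells (adjusted p = 0.0109). Zfp260, a zinc finger protein known from the mouse heart, was detected in 100% of both groups, had a log fold of 0.37 and was not called in the authors' deposited table (adjusted p = 1). The authors' deposited table likewise lists Zfp12 and Zfp511 for MMP-low with an adjusted p of 1.

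Between these extremes lay Zfp genes found in a majority of MMP-low cells and a minority of MMP-high cells. Zfp318, which in mouse B cells controls the joint expression of IgM and IgD, was detected in 70.5% of MMP-low cells and 31.1% of MMP-high cells by the authors' deposited table (log fold 0.40, adjusted p = 2.76e-08). Zfp472 was detected in 79% of MMP-low cells and 28.6% of MMP-high cells and Zfp961 in 73.3% of MMP-low cells and 16.8% of MMP-high cells by the authors' deposited table. Zfp87 and Zfp938 had the same detection in the authors' deposited table, 70.5% of MMP-low cells and 24.4% of MMP-high cells, though they lie on different chromosomes. Zfp566 was detected in 62.9% of MMP-low cells and 16.8% of MMP-high cells of the authors' deposited table. These genes were thus common in MMP-low cells and found in a minority of MMP-high cells. Zfp120, at 78.1% of MMP-low cells and 43.7% of MMP-high cells, and Zfp433, at 85.7% of MMP-low cells and 59.7% of MMP-high cells, overlapped more in the authors' deposited table.

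The remaining MMP-low genes were of mixed kinds. Zfp746, known as PARIS, a KRAB protein that represses Ppargc1a, passed narrowly (adjusted p = 0.0480) and by the authors' deposited table was found in 80% of MMP-low cells and 63.9% of MMP-high cells. Zfp568, a KRAB protein that represses a placental transcript of Igf2 in mice, was found in 67.6% of MMP-low cells and 46.2% of MMP-high cells of the authors' deposited table and was not called (adjusted p = 0.30). Zfp141 was not called either, as the authors' deposited table gives it an adjusted p of 0.878. Zfp125 and Zfp783 are annotated as transcribed pseudogenes and were called for MMP-low, at 56.2% of MMP-low cells and 20.2% of MMP-high cells for Zfp125 and 61% of MMP-low cells and 26.1% of MMP-high cells for Zfp783 in the authors' deposited table.

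On the MMP-high side the same kind of contrast appeared in the other direction. Zfp760 was detected in 1.0% of MMP-low cells and 69.7% of MMP-high cells by the authors' deposited table (log fold 0.43 toward MMP-high, adjusted p = 3.48e-20). Zfp324 was detected in 2.9% of MMP-low cells and 64.7% of MMP-high cells by the authors' deposited table (log fold 0.25, adjusted p = 4.04e-16). Zfp930 had the largest fold of the Zfp genes toward MMP-high, 0.46, and was found in 17.1% of MMP-low cells and 83.2% of MMP-high cells by the authors' deposited table (adjusted p = 5.17e-14). These 3 genes were rare in MMP-low cells and present in most MMP-high cells. Genes at or under 5% in MMP-low cells were 2 of the 12 genes listed for MMP-high, or 16.7%, beside 1.31% of all 919 genes listed for MMP-high.

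Zfp654 was detected in 24.8% of MMP-low cells and 79.8% of MMP-high cells, and Zfp280c in 34.3% of MMP-low cells and 89.9% of MMP-high cells of the authors' deposited table. Zfp799 stood at 32.4% of MMP-low cells and 82.4% of MMP-high cells, and Zfp157 at 25.7% of MMP-low cells and 66.4% of MMP-high cells by the authors' deposited table. All 4 were called for MMP-high, at adjusted p values between 2.38e-08 for Zfp654 and 0.00292 for Zfp157 in the authors' deposited table. Zfp277, Zfp24, Zfp68 and Zfp326 were listed but not called, at adjusted p values of 0.336 for Zfp277, 0.104 for Zfp24, 0.0696 for Zfp68 and 1 for Zfp326 in the authors' deposited table. ZFP326 is part of a complex that links RNA polymerase II elongation to splicing.

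**Figure D2:**
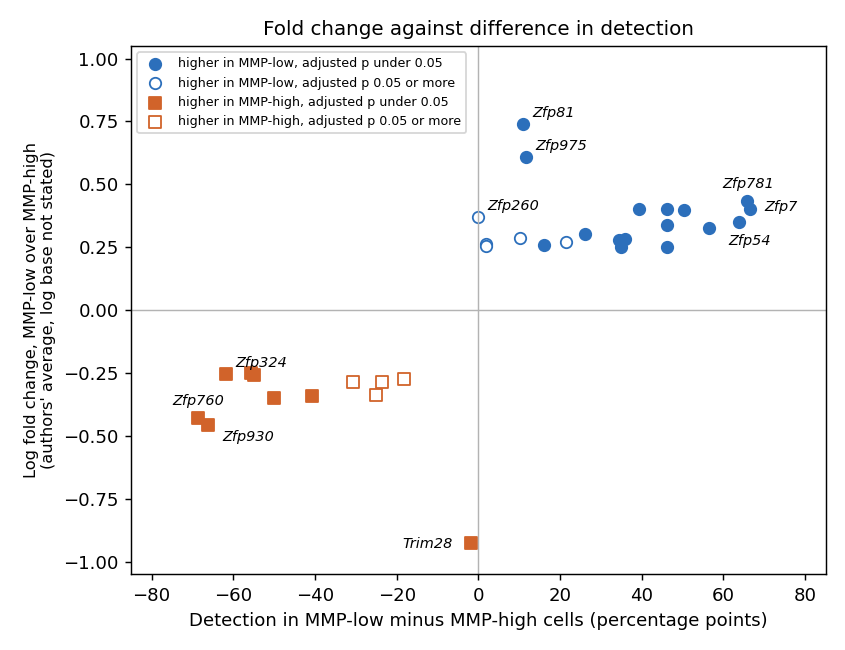
Log fold change (MMP-low over MMP-high, the authors' average, base not stated) against detection in MMP-low minus MMP-high cells in percentage points, for the 33 listed genes of the authors' deposited table; open symbols mark an adjusted p of 0.05 or more. Trim28, Zfp81 and Zfp975 have large folds at small differences in detection, while Zfp7, Zfp781 and Zfp760 have smaller folds at differences over 60 points.

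Among listed genes, medians of detection were lower for these genes than for all listed genes, and medians of the difference in detection were larger in size. Only genes past the fold and p limits given above are listed, so these medians describe listed genes and not the family. The 21 genes of the MMP-low side had a median detection of 71.4% in MMP-low and 31.1% in MMP-high cells by the authors' deposited table. All 949 genes listed for MMP-low had medians of 84.8% in MMP-low and 70.6% in MMP-high cells there. The median fold of the 21 genes was 0.33, beside 0.36 over all listed genes of that side in the authors' deposited table. On the MMP-high side the 12 genes had medians of 33.4% in MMP-low and 82.8% in MMP-high cells, beside 75.2% in MMP-low and 96.6% in MMP-high cells for all 919 genes of the authors' deposited table. On the MMP-low side the median of MMP-low minus MMP-high detection was 34.9 percentage points, beside 11.5 over all listed genes. Among called genes of that side it was 42.8, beside 32 over all called genes. On the MMP-high side it was -45.4, beside -18.5 over all listed genes. Among called genes of the MMP-high side it was -55.3, beside -38.35 over all called genes. These counts and medians are descriptions, and no difference from other genes was tested.

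The cells also fell into the authors' clusters A to E, which were built from the same expression values, so a cluster set against all other cells is a description. The authors' deposited table listed the genes 76 times, for 64 genes. Of these, 46 entries were called. The counts called were 15 of 22 listed in cluster A, 11 of 21 in B, 8 of 15 in C, 7 of 11 in D and 5 of 7 in E. Of all genes tested, cluster A listed 5.27% and called 4.05%, B listed 4.16% and called 1.64%, and C listed 5.12% and called 3.07%. Cluster D listed 3.23% of all genes tested and called 1.86%, and E listed 2.8% and called 1.12%. The group was taken partly from this same table too, so its counts are not comparable with these shares.

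The lists of clusters A and B shared 9 Zfp genes, which were Zfp7, Zfp12, Zfp54, Zfp81, Zfp318, Zfp568, Zfp781, Zfp938 and Zfp975, all of the MMP-low side. Zfp12 (adjusted p = 0.551) and Zfp568 (adjusted p = 0.0614) were not called in B by the authors' deposited table. Of all genes listed for MMP-low, 58.6% were in A and 42.9% in B, and the share of all genes in both lists was not counted. In cluster A, Zfp781 was detected in 100% of cells against 15.6% of all other cells of the authors' deposited table. Zfp7 was found in 97.8% of cluster A cells and 20.7% of other cells, and Zfp54 in 91.1% of cluster A cells and 14.5% of other cells of the authors' deposited table. The folds of cluster A were led by Zfp975 at 0.77, Zfp808 at 0.53, Zfp81 at 0.52 and Zfp12 at 0.44 in the authors' deposited table. Zfp808, detected in 97.8% of cluster A cells and 54.2% of other cells, was absent from the MMP list of the authors' deposited table.

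Cluster B repeated the 3 genes of sharp detection. Zfp7 was detected in 100% of cluster B cells and 27% of other cells, Zfp54 in 92.9% of cluster B cells and 20.9% of other cells, and Zfp781 in 89.3% of cluster B cells and 24.5% of other cells of the authors' deposited table. The largest folds of cluster B were 0.73 for Zfp87, which was not called (adjusted p = 0.305), 0.66 for Zfp715, 0.64 for Zfp280d, also not called (adjusted p = 1), and 0.63 for Zfp781 in the authors' deposited table. Zfp715 was found in 96.4% of cluster B cells and 55.6% of other cells of the authors' deposited table. Granulocyte markers were called in clusters A (4 of 13 markers) and B (6 of 13), and lymphoid markers in A (1 of 10) and B (4 of 10). HSC markers were called in A (4 of 10) and B (1 of 10), erythroid markers in A (3 of 9), and 2 granulocyte markers in C. Their part in these Zfp values was not tested.

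**Figure D3:**
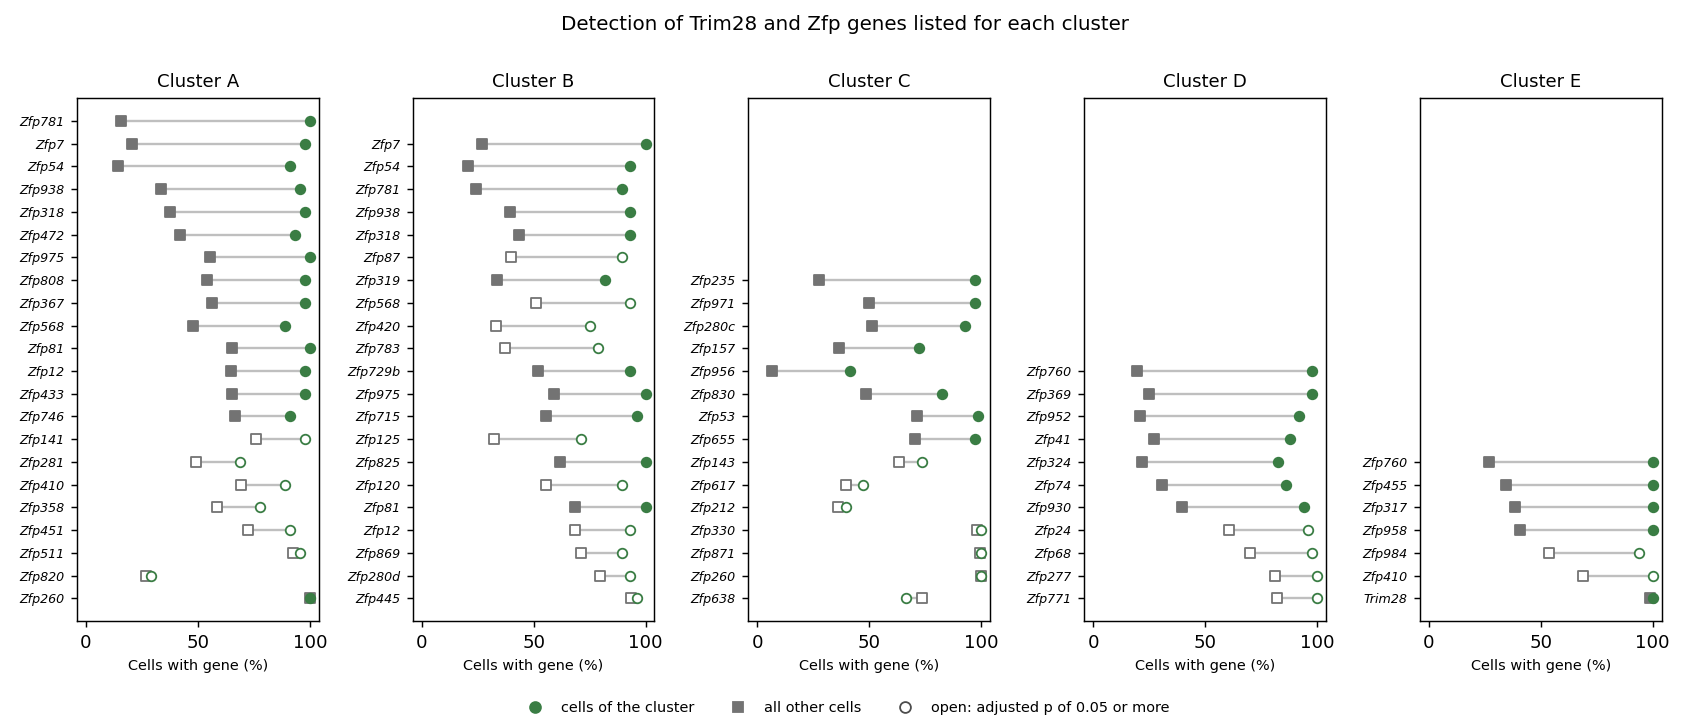
Percent of cells with each gene detected, in cells of clusters A to E (green circles) and in all other cells (grey squares), for the genes the authors' deposited table lists per cluster; open symbols mark an adjusted p of 0.05 or more. Zfp781, Zfp7 and Zfp54 head clusters A and B, Zfp235 cluster C, and Zfp760 clusters D and E.

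Cluster C had mostly Zfp genes that the MMP comparison did not list. Zfp235 led it with a log fold of 0.57 and was detected in 97.1% of cluster C cells and 27.6% of other cells of the authors' deposited table. Zfp971 was detected in 97.1% of cluster C cells and 50% of other cells, and Zfp280c in 92.6% of cluster C cells and 51.3% of other cells of the authors' deposited table. Zfp157, found in 72.1% of cluster C cells and 36.5% of other cells of the authors' deposited table, had a log fold of 0.44. Zfp956 was rare, at 41.2% of cluster C cells and 6.4% of other cells of the authors' deposited table. Zfp871 had a log fold of 0.50 but was found in nearly all cells and not called (adjusted p = 0.437) in the authors' deposited table. Zfp638 was the only one of the 76 entries detected in fewer cells of its cluster, at 66.2% of cluster C cells against 73.7% of other cells of the authors' deposited table. Elane, a granulocyte gene, was detected in 82.4% of cluster C cells and 0% of other cells of the authors' deposited table, and its part was not tested.

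Clusters D and E held several genes of the MMP-high side. Zfp760 was in both, at 98% of cluster D cells and 19.7% of other cells, and at 100% of cluster E cells and 27.1% of other cells of the authors' deposited table. Zfp930 led cluster D with a log fold of 0.49 and was found in 94.1% of cluster D cells and 39.9% of other cells of the authors' deposited table. Zfp369 and Zfp952 were also common in cluster D, at 98% of cluster D cells and 24.9% of other cells for Zfp369 and 92.2% of cluster D cells and 20.8% of other cells for Zfp952 in the authors' deposited table. Zfp324 stood at 82.4% of cluster D cells and 22% of other cells of the authors' deposited table. The authors' deposited table gives Zfp68 a log fold of 0.34 and Zfp24 one of 0.30 in cluster D, and neither was called (adjusted p = 1 for both).

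Cluster E, in which Trim28 had the largest fold of these genes, also held Zfp317, Zfp958 and Zfp455. Zfp317 was detected in 100% of cluster E cells and 38.5% of other cells with a log fold of 0.45, and Zfp958 in 100% of cluster E cells and 40.6% of other cells with a log fold of 0.42 in the authors' deposited table. Zfp455 was detected in 100% of cluster E cells and 34.4% of other cells of the authors' deposited table. Zfp410, which in mouse and human cells controls Chd4, was in clusters A and E and was not called in either.

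The MMP sides and the clusters lined up, for these genes and for all listed genes. Of the 21 genes listed for MMP-low, 19 were listed in cluster A or B and none in D or E. Of all genes listed for MMP-low, 75.7% were in A or B and 0.105% in D or E. Of the 12 genes listed for MMP-high, 7 were listed in D or E and none in A or B. Of all genes listed for MMP-high, 43.9% were in D or E and 0% in A or B. Cluster C listed 1 of the 21 genes and 2 of the 12, beside 6.32% of all MMP-low genes and 13.2% of all MMP-high genes. The MMP and cluster tables rest on the same cells, so this is no independent support. Zfp566 and Zfp961 of the MMP-low side, and Zfp326, Zfp654 and Zfp799 of the MMP-high side, were in no cluster list. The same held for 21.5% of all genes listed for MMP-low and 43.9% of all genes listed for MMP-high. In all, 28 of the 33 genes of the MMP table (84.8%) were in the cluster table, which is 43.8% of its 64 genes.

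Most of the family had no value in either table. Of the 195 genes in the list of highly variable genes, 146 were in neither, or 74.9%, beside 67.2% of all 5624 variable genes. Called in the MMP table were 10.8% of the 195, beside 11.2% of all variable genes. By chromosome, the 146 genes included Zfp27, Zfp28, Zfp30, Zfp59, Zfp60, Zfp61, Zfp84, Zfp93, Zfp110, Zfp146, Zfp180, Zfp296, Zfp329, Zfp446, Zfp574, Zfp580, Zfp592, Zfp606, Zfp607b, Zfp626, Zfp628, Zfp629, Zfp646, Zfp667, Zfp688, Zfp710, Zfp719, Zfp747, Zfp772, Zfp773, Zfp780b, Zfp788, Zfp940 and Zfp941 on chromosome 7. Chromosome 17 held Zfp40, Zfp51, Zfp52, Zfp97, Zfp101, Zfp119a, Zfp160, Zfp213, Zfp229, Zfp523, Zfp563, Zfp598, Zfp677, Zfp758, Zfp763, Zfp870, Zfp942, Zfp943, Zfp944, Zfp948, Zfp955a, Zfp955b, Zfp959, Zfp960, Zfp983 and Zfp994. Chromosome 13 held Zfp65, Zfp131, Zfp184, Zfp322a, Zfp346, Zfp429, Zfp458, Zfp595, Zfp712, Zfp729a, Zfp738, Zfp748, Zfp874b, Zfp934 and Zfp935, and chromosome 11 held Zfp2, Zfp3, Zfp62, Zfp207, Zfp286, Zfp354a, Zfp354b, Zfp652, Zfp672 and Zfp867. Chromosome 2 held Zfp64, Zfp217, Zfp335os, Zfp341, Zfp512b, Zfp770, Zfp931, Zfp965 and Zfp973, of which Zfp335os is an antisense transcript, and chromosome 8 held Zfp1, Zfp276, Zfp612, Zfp821, Zfp866, Zfp868, Zfp882 and Zfp963. Chromosome 18 held Zfp35, Zfp236, Zfp397, Zfp407, Zfp521, Zfp532 and Zfp608, of which ZFP521 is a known regulator of early hematopoietic cells, and chromosome 15 held Zfp251, Zfp385a, Zfp623, Zfp647, Zfp707 and Zfp740. On chromosome 6 were Zfp239, Zfp282, Zfp384, Zfp398 and Zfp777, on 9 Zfp202, Zfp653, Zfp810, Zfp846 and Zfp949, on X Zfp182, Zfp185, Zfp275, Zfp449 and Zfp711, on 4 Zfp46, Zfp618, Zfp933 and Zfp987 and on 5 Zfp113, Zfp512, Zfp932 and Zfp951. The rest were Zfp142 on chromosome 1, Zfp280b and Zfp873 on 10, Zfp839 on 12, Zfp263 on 16, Zfp950 on 19 and Zfp639 and Zfp687 on 3. For these genes the tables give a name but no level, and their absence from the other tables does not show that they were equal between groups.

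Position was compared because Zfp genes lie in clusters. All 215 genes matched GENCODE M21, which uses the same mm10 assembly the submitters name, and 212 of them are protein coding, 2 are transcribed unprocessed pseudogenes and 1 is an antisense gene. Chromosomes 7 (48 genes), 17 (36), 13 (22) and 8 (16) held the most. Of the 33 genes of the MMP table, 14 pairs lay within 1 Mb of each other, 11 of them on the same side of the comparison and 3 on opposite sides. These pairs involve 19 genes and some share a gene, so they are not separate cases. The same-side share among pairs farther apart was not computed, and no link between position and side was tested. Same-side runs included Zfp433, Zfp781 and Zfp938 on chromosome 10 and Zfp566, Zfp260 and Zfp568 on chromosome 7, all for MMP-low. Zfp54 and Zfp760 lie 272 kb apart on chromosome 17 and were on opposite sides, as were Zfp799 and Zfp472, which lie 135.6 kb apart. The annotated spans of Trim28 and Zfp324 lie 24.9 kb apart, with Zfp446 between them, and both genes were higher in MMP-high. The GENCODE span of Trim28 begins at 12999114, before the RefSeq start whose promoter is shown, so the distance between the promoters shown is larger.

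**Figure D4:**
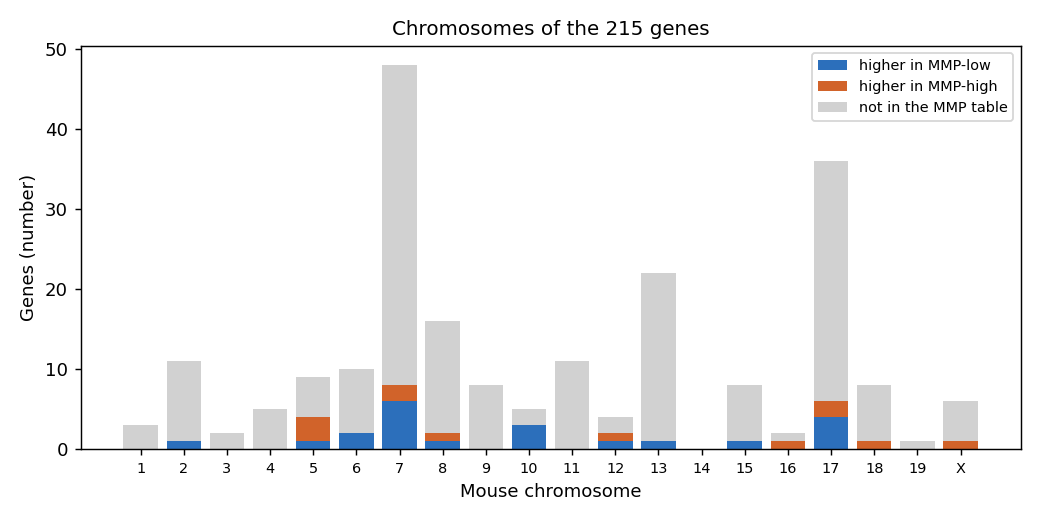
Number of the 215 genes on each mouse chromosome, with the genes listed as higher in MMP-low in blue, those higher in MMP-high in orange and those not in the MMP table in grey. Chromosomes 7 and 17 hold the most genes, and both sides occur on each of them.

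The proteins were compared for the KRAB box that lets them bind TRIM28. A KRAB-like stretch was sought in the first 250 residues of the longest annotated coding sequence. Of the Zfp genes with a coding sequence, 16 of 19 on the MMP-low side and 6 of 11 on the MMP-high side held one, beside 234 of 391 annotated Zfp genes (59.9%). The pattern was widened after the counts of a narrower one had been seen, because genes known to encode KRAB proteins had been missed. The narrower pattern gave 13 of 19 on the MMP-low side, 4 of 11 on the MMP-high side and 171 of 391 annotated Zfp genes. The median number of C2H2 finger patterns was 11 on the MMP-low side and 9 on the MMP-high side, beside 10 over annotated Zfp genes. The numbers ranged over 0 to 17 on the MMP-low side and 1 to 16 on the MMP-high side. Zfp781, with a longest annotated coding sequence of 243 residues, had a KRAB-like stretch but 0 finger patterns. These groups are small and were not tested.

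Promoters in the same table from RefSeq were found for 178 of the 215 genes. The CCAAT box was in 56.2% of them, beside 37.9% of all 27025 promoters, and the ETS motif was in 20.2%, beside 9.12% of all promoters. The GC box was in 47.2% of the genes' promoters and in 35.9% of all, and the TATA box was in 5.06% of the genes' promoters and in 14.2% of all. The E-box was in 8.43% of the genes' promoters and in 7.24% of all. Among called genes, the CCAAT box was in 7 of 13 promoters of the MMP-low side and 4 of 6 of the MMP-high side. Paralogs share promoter sequence, so these are not independent matches.

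Of the partners of TRIM28 and the enzymes of histone H3 lysine 9 methylation, 45 symbols were followed. Of these, 3 were listed for MMP-low and 7 for MMP-high, and 1 was called for MMP-low and 4 for MMP-high. Of all genes tested, 5.86% were listed and 3.33% called for MMP-low, and 5.67% listed and 3.69% called for MMP-high. Among the clusters, 3 of the 45 symbols were called in A, 2 in B, 1 in C and 0 in D and E. Ehmt2, a histone H3 lysine 9 methyltransferase, was found in 100% of cluster A cells and 73.7% of other cells and was called in A and B by the authors' deposited table, and Daxx and Morc2a were also called in A. Setdb1, Cbx1 and Dnmt1 were in none of the tables. Uhrf1, which reads methylated DNA and histone H3, was found in 38.1% of MMP-low cells and 98.3% of MMP-high cells of the authors' deposited table, with a log fold of 0.50 toward MMP-high. ATF7IP, a partner of SETDB1, is encoded by Atf7ip, which was found in 48.6% of MMP-low cells and 92.4% of MMP-high cells of the authors' deposited table. Smarcad1, a chromatin remodeller that binds TRIM28, stood at 34.3% of MMP-low cells and 79.8% of MMP-high cells and Cbx5, which encodes HP1 alpha, at 79% of MMP-low cells and 98.3% of MMP-high cells of the authors' deposited table. Morc2a, which acts with the HUSH complex in silencing, was the gene called for MMP-low, at 71.4% of MMP-low cells and 15.1% of MMP-high cells of the authors' deposited table. Cell cycle genes were listed toward MMP-high too, with 0 of 20 for MMP-low and 13 for MMP-high, 8 of them called, and their part in these values was not tested. Genes of other zinc finger families and other TRIM genes were taken only from symbols already in the authors' tables, unlike the 45 symbols above. Of 94 such zinc finger genes, 79 of them in the variable list, 6 were listed for MMP-low and 3 for MMP-high. Called were 2 for MMP-low and 3 for MMP-high. No gene of 24 other TRIM genes, 22 of them in the variable list, was listed for either side, while 3 were called in cluster C and 1 in cluster B.

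In the authors' deposited enrichment tables, Trim28 was among the genes of 16 of 61 MMP-high terms and 22 of 54 cluster E terms, and no Zfp gene was among the genes given. One factor set is named ZNF384, with ZNF in place of Zfp. Whether these sets can hold genes under Zfp symbols was not checked, so the lack of Zfp genes is not read as a result. The 16 MMP-high terms, nearly all of RNA binding, have 1199 to 1230 genes with overlaps of 192 to 195, and the 22 cluster E terms, apart from protein sumoylation, have overlaps of 54 to 56. Terms so alike in size are not read as separate gene sets, and how many genes they share was not counted. Trim28 was in 5 of 21 factor sets of the MMP-high side and 0 of 21 of the MMP-low side.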

How the data were processed

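Single-cell RNA was read with the SMART-Seq v4 and Nextera XT kits as single reads, per the labels' protocols, without molecular identifiers. STAR 2.5.2b, bcl2fastq 2.17.1.14 and mm10 are named in the submitters' processing notes. Per the file headers, the authors deposited counts of reads and of detected genes for each library. Each p-value is the authors' deposited one, from MAST by the title of the MMP table, and the adjusted one is 16203 times as large, up to 1. This factor was taken as the number of genes tested, which is not stated. Detection was deposited as a fraction of cells and turned into percent here; no cell numbers were derived from it. The base of the authors' deposited log fold changes is not stated. The authors' normalization is not stated.

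The genes and lists were chosen with earlier results of these data known. Named genes were Trim28, every called gene of the MMP table and the 8 largest folds per side, the 4 largest folds per cluster, genes in both tables, those of the variable list by name, and called TRIM28 partners. Genes most like Trim28 over clusters could not be chosen, since detection is given only where a gene is listed. Other zinc finger, marker and cell cycle lists were counted. Ly6a, Ltf, Ighm, Elane, Prtn3, Hlf, Eif2s3y and Xist were named after their values were seen. The scripts' member rule and counts were checked on simulated tables. Positions came from GENCODE M21 and promoters from RefSeq; where a gene had several starts, the first was used. Python 3.11.15, pandas 2.3.3, numpy 2.4.6 and Biopython 1.88 were used. Alternatives were other thresholds, members, libraries and the KRAB pattern.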

Additional observations from a re-analysis of the deposited data

How the results depend on the processing

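No setting turned the direction of a gene, since those values are the authors' own. With a log fold of at least 0.5 besides the adjusted p, the genes called were 2 in MMP-low and 1 in MMP-high, and to 3 in cluster A, 4 in B, 1 in C, 0 in D and 1 in E. With every listed gene counted, they were 21 in cluster B, 15 in C and 11 in D. For called Trim28 and Zfp genes alone, the median of MMP-low minus MMP-high detection was 42.8 percentage points on the MMP-low side. On the MMP-high side it was -55.3. All listed Trim28 and Zfp genes gave 34.9 on the MMP-low side and -45.4 on the MMP-high side. The order of the median numbers of detected genes turned with the library number, with 2500 in MMP-low and 4080 in MMP-high libraries numbered up to 85, and 2083 in MMP-low and 1905 in MMP-high libraries numbered above 85. All other settings tried left each count within 1.5 times its value and each median of detected genes within 1 SD. The KRAB pattern in use, with 16 genes on the MMP-low side and 6 on the MMP-high side, was chosen after seeing the data, and the narrower one tried first gave 13 on the MMP-low side and 4 on the MMP-high side.

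No paired analysis was possible because each group is 1 sample with no animal named, and the result comes from no test. No expression per cell was analysed here, so leaving out libraries from the authors' tables could not be done.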
